A study of Homo sapiens with 29 samples.

Results

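The comparison described here is that of HepG2 cells treated with CCL for 48 h against the same treated line at 6 h, the late against the early state of the treated arm. CCL is the labels' short name for the herb Cratoxylum cochinchinense Lour, and HepG2 is an established human liver tumour line that keeps many hepatocyte genes active. The arrays were chosen by their treatment and time labels alone, which gave 5 of the 29 arrays of the series: 2 arrays of CCL-treated cells at 48 h and 3 of CCL-treated cells at 6 h. The labels number the arrays of a group as sets. Sets 1, 2 and 3 were present at 6 h, and sets 1 and 2 at 48 h. Untreated HepG2 cells at the same times, 3 arrays at 6 h and 3 at 48 h, served as the background of culture time. The dose of CCL, the vehicle given to untreated cells and the meaning of a set are not given in the sources used here. Separate cultures are not named for the arrays of a group, and the spread that a p-value rests on here may be technical. RNA was measured in bulk, and a lower level can come from less RNA per cell or from fewer cells that make it; these cannot be told apart here.

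Cells kept in culture with a growth-limiting or stressful agent can change several well studied gene programmes. The transcription factor ATF4, made when amino acids run short or when protein folding is disturbed, turns on enzymes that make or import amino acids and the synthetases that charge transfer RNA with them. Immediate early genes such as JUNB and EGR1 are switched on within minutes of growth factor or stress signals and their transcripts decay quickly. Genes for DNA replication are driven by E2F factors at the G1/S border and genes for mitosis by MuvB complexes late in the cycle. Both groups therefore fall in cultures that divide less.

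The 2 arrays at 48 h were not alike, and results are given with and without the one that stood apart. Over the 6365 genes tested they differed from each other by a mean absolute value of 0.556 on the log2 scale, and 984 genes differed by more than 1. Pairs of arrays at 6 h differed by 0.301 to 0.380. The 48 h array of set 2 lay 0.316 to 0.349 from the 6 h arrays, within the distance of the 6 h arrays from each other, while that of set 1 lay 0.572 to 0.617 from them. Hepatocyte markers were present on all 5 arrays: 7 of 10 had a named probe set and all 7 lay above log2 5, with ALB, the albumin gene, at 11.7 to 12.0. Their summed log2 level was 69.4 to 69.8 at 6 h and 68.8 to 68.9 at 48 h. A list of transcripts sensitive to RNA quality or stress, or short-lived, had 4 tested members (MALAT1, UBB, HSPA1A and JUND). Their median change was -0.16 on the set 1 array and -0.20 on the set 2 array, and none was called. One of them, the nuclear RNA MALAT1, changed by -1.47 on the set 1 array and 0.25 on the set 2 array. The cause of the distance of the set 1 array was not tested.

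At 48 h, 114 genes were higher and 164 were lower than at 6 h at an adjusted p under 0.05 by limma, 1.79% and 2.58% of those tested and 4.37% together. Genes past this threshold are termed called, and the verbs rose and fell are used of them alone. The median change was 0.94 on the log2 scale among genes that rose and -1.15 among genes that fell, against -0.01 over all genes tested. All 114 genes that rose and 158 that fell had no overlap between the arrays of the times, where 23.8% of all genes had none. For all 278 called genes both 48 h arrays lay on the same side of the 6 h mean, but in 242 of them the set 1 array had moved farther. Among genes that fell, the median change was -1.62 on the set 1 array and -0.59 on the set 2 array. Among genes that rose, these medians were 1.18 and 0.71. Without the 48 h array of set 1, 20 genes were called (0.314% of those tested), 17 of them among the 278. Without that of set 2, 1407 genes were called (22.1%), 261 of them among the 278. Leaving out the 6 h array of set 1, 2 or 3 left 121, 139 or 152 calls.

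**Figure D1:**
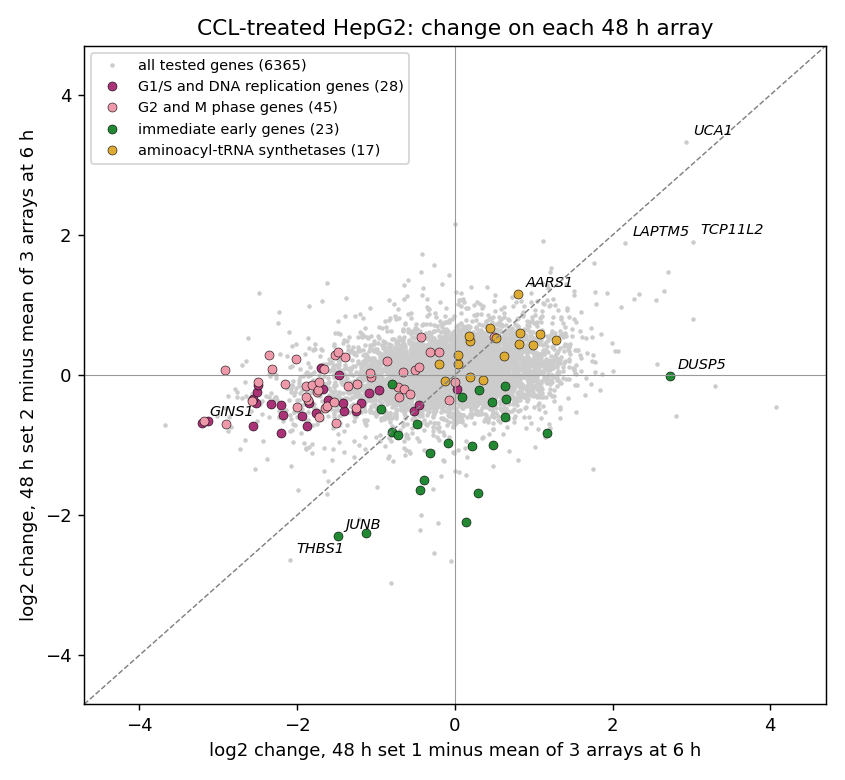
Change of each tested gene in CCL-treated HepG2 on the 48 h array of set 1 (horizontal axis, log2) and of set 2 (vertical axis, log2), each against the mean of the 3 arrays at 6 h. Grey points are all 6365 genes, coloured points are members of 4 gene lists, and the dashed line marks equal change; cell cycle genes spread along the horizontal axis, most immediate early genes lie below 0 on the vertical axis, and UCA1, TCP11L2 and LAPTM5 lie far from 0 on both axes.

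A small group of genes was called whichever of the 5 arrays was left out: 14 genes, 0.22% of those tested, of which 7 rose and 7 fell. UCA1, a long noncoding RNA first described in bladder cancer, had the largest rise. Its log2 values were 6.11, 5.38 and 5.03 at 6 h in sets 1, 2 and 3 and 8.43 and 8.83 at 48 h in sets 1 and 2. The arrays did not overlap, and UCA1 was 8.74-fold higher at 48 h (log2 change 3.13 ± 0.53 SE, n = 2 and 3, adjusted p = 0.00247). A second UCA1 probe set, at a lower level, changed by 1.09. TCP11L2, a gene of little known function, stood at 4.25, 4.28 and 4.61 at 6 h and at 7.40 and 6.29 at 48 h, a rise of 2.46 ± 0.34 (adjusted p = 0.000625). Both 48 h arrays lay more than the whole spread of the 6 h arrays above them.

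LAPTM5, which encodes a lysosomal membrane protein best known from blood cells, was at 4.40, 4.32 and 4.75 at 6 h and 6.65 and 6.37 at 48 h. It rose by 2.02 ± 0.30 (adjusted p = 0.000758), a 4.05-fold difference, and the arrays did not overlap. CD68, another lysosomal membrane protein used as a macrophage marker, rose from 8.61, 9.003 and 8.51 to 10.1 and 9.54 (log2 change 1.09 ± 0.25, adjusted p = 0.0152, but 0.372, with a change of 0.83, without the 48 h array of set 1). LAPTM5 and CD68 are leukocyte markers as well, and 9 of 20 such markers had a named probe set. The summed log2 level of these 9 was 43.4 to 44.4 at 6 h and 47.6 to 52.6 at 48 h. The defining markers CSF1R, CD52, TYROBP and NKG7 stayed below log2 5 on all 5 arrays, and CD14 did too, with means of 3.06 at 6 h and 4.13 at 48 h. CD68 and the lysozyme gene LYZ, the latter at 10.7 and 10.8, were already high at 6 h. LCP1, the leukocyte actin bundler plastin, had means of 3.94 and 4.80 and reached 5.60 on the 48 h array of set 1. The part of these markers in the rise of LAPTM5 and CD68 was not tested. PTPRC, the general leukocyte antigen, was not analysed here. Of the 20 autophagy and lysosome genes tested, LAPTM5 and CD68 were the 2 that rose, none fell, and the median change was 0.13.

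**Figure D2:**
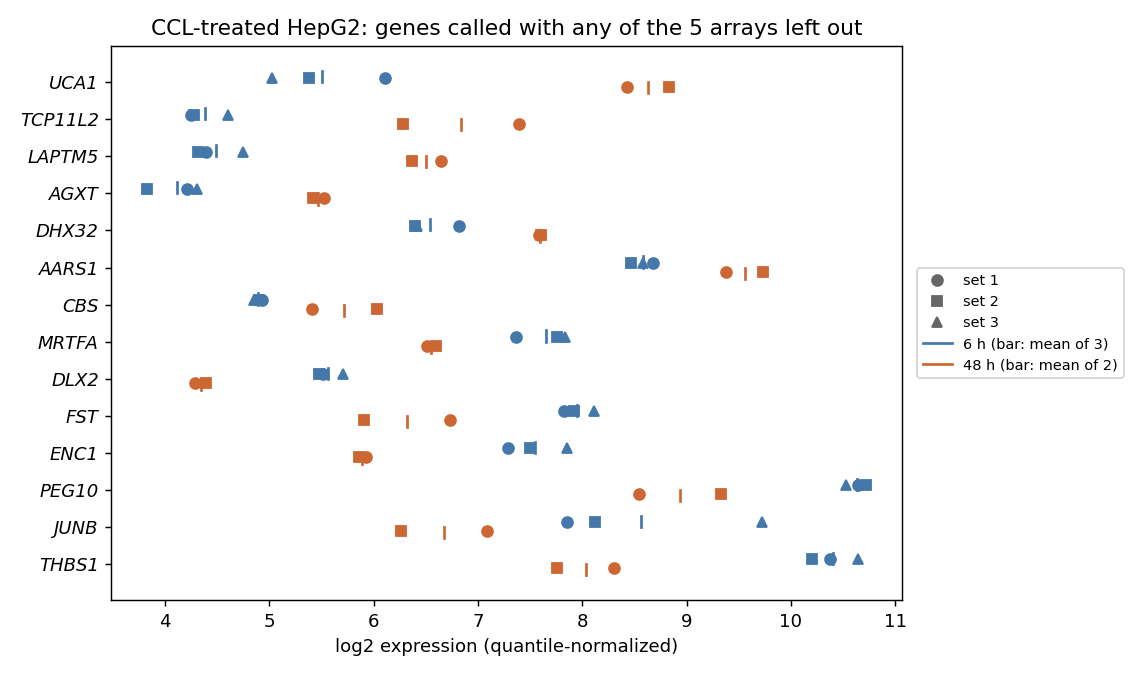
Log2 expression of the 14 genes called with any of the 5 arrays left out, on each array of CCL-treated HepG2 at 6 h (blue) and 48 h (orange), with set shown by symbol and group means by bars. In each gene the 2 arrays at 48 h lie on one side of the 3 arrays at 6 h.

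In the lists of aminoacyl-tRNA synthetases and of ATF4 and CHOP targets (17 and 13 genes tested) 9 genes rose and none fell. Of all genes tested, 1.79% rose and 2.58% fell. Of 17 aminoacyl-tRNA synthetases tested, 6 rose (AARS1, CARS1, YARS1, SARS1, GARS1 and MARS1) and none fell. The median change of the 17 was 0.45, and it was 0.45 on the set 1 array and 0.45 on the set 2 array, against -0.03 in untreated cells. Single members differed between these arrays: CARS1 changed by 1.28 and 0.50 and AARS1 by 0.80 and 1.16. AARS1, the alanyl-tRNA synthetase, lay at 8.68, 8.47 and 8.59 at 6 h and at 9.38 and 9.73 at 48 h. It rose by 0.98 ± 0.17 (adjusted p = 0.00270) and was called with any array left out. The other 5 rose by 0.56 (MARS1) to 0.89 (CARS1), and none of them was called without the 48 h array of set 1, when their changes ran from 0.43 (GARS1) to 0.67 (MARS1).

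Of 13 ATF4 and CHOP targets tested, 3 rose (CTH, ASNS and PHGDH), none fell, and all 13 had a change above 0, with a median of 0.58. This median was 0.83 on the set 1 array and 0.48 on the set 2 array, and 0.09 in untreated cells. CTH, which makes cysteine from cystathionine, was at 3.91, 3.89 and 5.14 at 6 h and at 7.01 and 5.79 at 48 h (2.09 ± 0.43, adjusted p = 0.00867). ASNS, the asparagine synthetase, was at 5.89, 5.65 and 6.21 at 6 h and at 7.69 and 7.11 at 48 h (1.48 ± 0.30, adjusted p = 0.00753). In both genes the 48 h arrays lay above every 6 h array and the set 1 array was the higher. PHGDH, the first enzyme of serine synthesis, rose by 0.76 ± 0.20 (adjusted p = 0.0373). None of the 3 was called without the 48 h array of set 1, when CTH changed by 1.48, ASNS by 1.19 and PHGDH by 0.51. ATF4 itself changed by 0.47 and did not pass the test.

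Further genes outside these lists, most of them enzymes of amino acid metabolism, were picked out after their values were seen. CBS, the enzyme before CTH in cysteine synthesis, rose by 0.83 ± 0.17 (adjusted p = 0.00795) from 4.93, 4.90 and 4.85 to 5.41 and 6.03 and was called with any array left out. SHMT2, which splits serine to glycine in mitochondria, rose by 0.96 ± 0.20 (adjusted p = 0.00873). GCAT, which acts in threonine breakdown to glycine, rose by 1.06 ± 0.26 (adjusted p = 0.0220). AGXT, the peroxisomal alanine-glyoxylate aminotransferase of hepatocytes, rose from 4.21, 3.83 and 4.31 to 5.52 and 5.42 (1.35 ± 0.21, adjusted p = 0.000887). The AGXT arrays lay close within each time, and the means at 12, 18 and 24 h, 4.004, 3.91 and 3.88, were no higher than at 6 h. DHX32, a helicase-like protein, rose by 1.05 ± 0.16 (adjusted p = 0.00105). AGXT and DHX32 were, like CBS, called with any array left out, while SHMT2 and GCAT were not. AGXT exceeded log2 5 only on the CCL arrays at 48 h, so it passed the filter through the group where it was high. The filter was not applied anew when an array was left out, so those fits do not test this. Without the 48 h array of set 1, SHMT2 changed by 0.82 and GCAT by 1.16. With the deposited values CBS, SHMT2 and GCAT were not called (adjusted p = 0.134, 0.0959 and 0.133 by limma), while AGXT and DHX32 were. The untreated change was 0.47 for CBS, 0.45 for GCAT, 0.15 for SHMT2, 0.27 for AGXT and 0.11 for DHX32.

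The composite element bound by ATF4 with CEBP proteins was looked for as TGATGNAA, on both strands, in the 250 bases before each gene's start. A RefSeq promoter of GRCh38.p14 was at hand for 5140 of the 6365 genes tested, and 1.19% of these held the element, as did 3.19% of all 27305 promoters in the table. It was found in 2 of 12 promoters of the ATF4 and CHOP targets tested (16.7%) and in 2 of 14 of the synthetases (14.3%). The pair of called genes that hold it, ASNS and AARS1, are printed as the called members of these lists with the element. Each is read 5′ to 3′ on the gene's strand with the element in capitals (in AARS1 as its reverse complement). ASNS lies on the minus strand at chr7:97872429-97872516 and AARS1 on the minus strand at chr16:70289646-70289733. The first list was drawn up from known ATF4 and CHOP targets, and ATF4 is known to turn on synthetases. These shares therefore describe the lists and not the CCL response. A match is a description of the letters and no measure of binding.
ASNS: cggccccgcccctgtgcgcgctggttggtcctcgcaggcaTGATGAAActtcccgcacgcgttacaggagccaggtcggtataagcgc
AARS1: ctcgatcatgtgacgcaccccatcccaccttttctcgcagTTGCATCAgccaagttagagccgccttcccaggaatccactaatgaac

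Other genes among the largest rises were called, but not with every array left out. NAGS, which makes the activator of the urea cycle, went from 5.38, 5.28 and 5.72 to 7.79 and 6.62 (1.75 ± 0.32, adjusted p = 0.00392). HKDC1, a hexokinase, went from 6.03, 6.47 and 6.72 to 8.33 and 7.58 (1.55 ± 0.31, adjusted p = 0.00807). ENG, a TGF-beta coreceptor best known from endothelium, rose by 1.81, NOS3, the endothelial nitric oxide synthase, by 1.68, and CDA, the cytidine deaminase, by 1.54. Of 10 endothelial markers, 8 had a named probe set and only ESAM exceeded log2 5 on any of the 5 arrays. VNN1, a pantetheinase induced by PPARA, rose by 1.93, TMEM140 by 1.68, DEPP1, a FOXO target, by 1.40, and AQP7P3, a pseudogene whose probes may also read its parent AQP7, by 1.91. S100A14, a calcium-binding protein, went from 3.95, 4.13 and 3.91 to 6.56 and 4.15 and rose by 1.36 (adjusted p = 0.0490). Its set 2 array at 48 h lay only just above the 6 h arrays, and the adjusted p was 0.965 without the set 1 array. None of NAGS, HKDC1, ENG, NOS3, CDA, VNN1, TMEM140, DEPP1 or AQP7P3 was called without that array either. Their changes were then smaller but still above 0, from 0.79 (AQP7P3) to 1.60 (TMEM140); that of TMEM140 hardly moved, since its 48 h arrays lay at 6.05 and 5.88, and its 6 h arrays were spread over 4.40, 3.72 and 4.74. DEPP1 changed by 1.41 in untreated cells, as much as in treated ones, and its second probe set changed by 0.32 in treated cells.

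THBS1, JUNB, EGR1 and FST fell, and each was lower on the set 2 array than on the set 1 array at 48 h. THBS1, which encodes the secreted matrix protein thrombospondin-1 and activates TGF-beta, had the largest fall. Its values were 10.4, 10.2 and 10.6 at 6 h and 8.31 and 7.76 at 48 h, with no overlap, a 5.17-fold fall (-2.37 ± 0.34, adjusted p = 0.000625). It lay at 9.37, 8.64 and 8.26 at 12, 18 and 24 h. Untreated cells were also lower in THBS1 at 48 h, without overlap. Their values were 9.04, 9.25 and 9.57 at 6 h and 8.37, 8.63 and 8.87 at 48 h. Of 8 TGF-beta and epithelial-mesenchymal transition genes tested, 3 fell and none rose, with a median of -0.79, against -0.30 in untreated cells. Besides THBS1 these were TAGLN, an actin-binding protein (-1.40), and SMAD7, the inhibitory Smad (-1.37). TAGLN was at 5.65, 5.58 and 5.44 at 6 h and at 5.29 and 3.02 at 48 h, so its fall was carried by set 2 (adjusted p = 0.0434, and 0.593 without that array). SMAD7 went from 6.57, 6.48 and 7.16 to 4.71 and 6.02, the opposite order (adjusted p = 0.0415, and 0.779 without the set 1 array).

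Of 23 immediate early genes tested, 5 fell (JUNB, EGR1, KLF10, IER2 and MCL1) and none rose. The median change was -0.53, but it was 0.10 on the set 1 array and -0.83 on the set 2 array. In untreated cells it was -0.03. JUNB, a subunit of the AP-1 factor, stood at 7.86, 8.12 and 9.72 at 6 h and at 7.09 and 6.27 at 48 h. The 6 h array of set 3 was the highest and the arrays did not overlap (-1.89 ± 0.37, adjusted p = 0.00657). JUNB was called with any array left out. Untreated cells were also lower in JUNB at 48 h, without overlap, at 6.21, 6.24 and 7.11 at 6 h and 5.85, 5.89 and 5.63 at 48 h.

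EGR1, a zinc finger factor induced by growth signals, was at 8.91, 9.54 and 10.9 at 6 h and at 8.65 and 7.53 at 48 h. The lowest 6 h value and the highest 48 h value, both of set 1, lay close together (-1.69 ± 0.45, adjusted p = 0.0325, 0.0712 without the 48 h array of set 1 and 0.137 without that of set 2). KLF10 and MCL1, the latter an anti-apoptotic BCL2 protein, fell by 1.04 and 0.71 on the log2 scale and were called without the set 1 array but not without the set 2 array. IER2 fell by 0.79 (adjusted p = 0.0359). Several immediate early genes did not pass: FOSL1, an AP-1 subunit, was at 7.90, 8.09 and 7.70 at 6 h and at 8.19 and 6.22 at 48 h. ATF3 (0.17), MYC (0.24) and IER3 (0.02) overlapped between times as well. DUSP5, a phosphatase of ERK, was at 8.76 on the set 1 array and 6.02 on the set 2 array at 48 h, against 6.38, 5.54 and 6.17 at 6 h, and did not pass (1.36, adjusted p = 0.134).

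Of 14 cytokine and growth factor genes tested, FST and DKK4 fell and none rose, with a median of -0.60 (-0.04 on the set 1 array and -0.94 on the set 2 array, -0.27 in untreated cells). FST, the activin-binding protein follistatin, went from 7.83, 7.92 and 8.11 to 6.74 and 5.90 (-1.63 ± 0.33, adjusted p = 0.00753), without overlap and with any array left out. IL11, a cytokine of the IL-6 family, was at 8.57, 8.94 and 8.65 at 6 h and 8.44 and 7.87 at 48 h and did not pass (-0.56, adjusted p = 0.393). LIF of the same family (-0.64), the chemokine CCL20 (-1.33, adjusted p = 0.138), the Notch ligand JAG1 (-0.24) and GDF15 (0.28) did not pass either. In each of these 5 the set 1 array was the higher of the pair at 48 h. IGFBP1, a secreted binding protein of insulin-like growth factors, changed by 0.44 and did not pass.

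Further falls that held with any array left out were those of ENC1, PEG10, DLX2 and MRTFA. ENC1, an actin-associated Kelch protein, went from 7.29, 7.50 and 7.86 to 5.92 and 5.86 (-1.66 ± 0.23, adjusted p = 0.000625). PEG10, an imprinted retrotransposon-derived gene common in liver tumours, went from 10.6, 10.7 and 10.5 to 8.55 and 9.33 (-1.69 ± 0.24, adjusted p = 0.000625). The homeobox gene DLX2 fell by 1.22 on the log2 scale (adjusted p = 0.000758). MRTFA, a coactivator of serum response factor, fell by 1.098 (adjusted p = 0.00118). ENC1, DLX2 and MRTFA were chosen after their values were seen. In untreated cells MRTFA changed by -0.51, DLX2 by -0.23, ENC1 by -0.08 and PEG10 by 0.002. BICC1, an RNA-binding protein (-1.81), the prostaglandin receptor gene PTGDR2 (-1.79) and the noncoding LOC100190986 (-1.79) were called but not without the 48 h array of set 1, when they changed by -1.65, -1.20 and -0.74. MT1E was the 1 of 5 metallothioneins tested that fell. It was at 6.76, 6.34 and 7.0 at 6 h and at 4.17 and 5.36 at 48 h (-1.94 ± 0.37, adjusted p = 0.00571, and 0.266 without the set 1 array). Metallothioneins are nearly identical in sequence, so the probes may read several of them.

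Many genes of DNA replication and mitosis fell, and most of this fall lay on 1 array. Of 28 G1/S and DNA replication genes tested, 15 fell, none rose, and all 28 had a change below 0, with a median of -1.14. The median was -1.80 on the set 1 array and -0.41 on the set 2 array, against -0.20 in untreated cells. Of 45 G2 and M phase genes, 10 fell and none rose, with a median of -0.86 (-1.52 and -0.13 on these arrays and -0.11 in untreated cells). Without the 48 h array of set 1, 0 of the 28 and 0 of the 45 were called by limma, with 4 of each list at an unadjusted p under 0.05, as were 490 of all genes. Without that of set 2, 24 and 32 were called.

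GINS1, a subunit of the replicative helicase, was at 7.24, 7.10 and 7.14 at 6 h and at 3.96 and 6.47 at 48 h. Both 48 h arrays lay below all 6 h arrays, by very different amounts (-1.95 ± 0.43, adjusted p = 0.0133, and 0.682 without the set 1 array). PCNA, the sliding clamp, was at 9.59, 9.32 and 9.17 at 6 h and 7.48 and 8.63 at 48 h (-1.30 ± 0.27, adjusted p = 0.00858). CLSPN, an adaptor of the replication checkpoint (-1.89), GINS2, a further helicase subunit (-1.64), and UHRF1, which guides maintenance of DNA methylation (-1.51), fell with the same order of arrays. A second CLSPN probe set, near the floor of the arrays at 1.98, changed by -0.01.

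SGO1, a protector of centromere cohesion, was at 6.63, 6.23 and 6.60 at 6 h and at 3.30 and 5.84 at 48 h (-1.92 ± 0.38, adjusted p = 0.00753). MKI67, the proliferation antigen Ki-67, was at 8.56, 9.07 and 8.49 at 6 h and at 6.21 and 8.61 at 48 h. Its set 2 array lay within the 6 h arrays, so MKI67 overlapped although it was called (-1.30 ± 0.37, adjusted p = 0.0483, and 0.984 without the set 1 array). MELK, a mitotic kinase (-1.80), SMC2, a condensin subunit (-1.23), and CENPK, a kinetochore protein (-1.73), fell too. The mitotic kinesin KIF20A (-0.62) and cyclin B1, CCNB1 (-0.33), did not pass, and both turn above 0 without the set 1 array.

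The E2F site was looked for as TTTCCCGC and as TTTGGCGC in the same 250 bases on both strands. TTTCCCGC was held by 7 of 22 G1/S gene promoters (31.8%) and 5 of the 13 called ones (38.5%), against 2.63% of tested genes and 1.42% of all promoters. TTTGGCGC was held by 3 of the 22 (13.6%) and 1 of the 13 (7.69%), against 0.934% of tested genes and 0.553% of all promoters. The core of the cell cycle homology region (CHR), TTTGAA, through which MuvB complexes bind, was held by 20 of 40 G2 and M phase promoters (50.0%), against 8.68% of tested genes and 13.6% of all promoters. Of the 10 called members 4 held it. The lists were drawn up from genes known to cycle, and many such genes are known E2F or MuvB targets, so these shares describe the lists and not the CCL response. The first 3 stretches are G1/S genes that fell, with the E2F site TTTCCCGC in capitals as the reverse complement. The last 3 are G2 and M phase genes that fell, with each CHR core in capitals. They lie at chr16:85688955-85689025 (GINS2, minus strand), chr20:5126634-5126721 (PCNA, minus), chr19:4909447-4909500 (UHRF1, plus), chr10:128126424-128126510 (MKI67, minus), chr15:69414254-69414339 (KIF23, plus) and chr2:112764610-112764735 (CKAP2L, minus). KIF23 and CKAP2L were chosen after their values were seen. KIF23, a kinesin of the midbody, fell by 1.16 on the log2 scale (adjusted p = 0.0278), and CKAP2L, a spindle protein, by 0.96 (adjusted p = 0.0447).
GINS2: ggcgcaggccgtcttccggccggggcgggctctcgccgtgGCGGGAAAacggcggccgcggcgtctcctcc
PCNA: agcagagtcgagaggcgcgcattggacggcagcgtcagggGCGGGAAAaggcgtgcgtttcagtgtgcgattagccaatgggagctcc
UHRF1: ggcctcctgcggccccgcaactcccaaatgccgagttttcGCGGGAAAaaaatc
MKI67: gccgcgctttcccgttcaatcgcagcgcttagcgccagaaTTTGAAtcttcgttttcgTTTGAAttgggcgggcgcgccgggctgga
KIF23: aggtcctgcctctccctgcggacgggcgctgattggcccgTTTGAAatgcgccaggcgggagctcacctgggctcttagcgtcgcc
CKAP2L: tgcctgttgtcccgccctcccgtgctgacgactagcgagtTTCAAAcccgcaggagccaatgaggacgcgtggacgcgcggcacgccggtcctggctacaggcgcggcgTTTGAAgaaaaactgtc

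DNA repair genes moved mostly on the set 1 array, and splicing genes moved on both 48 h arrays, farther on set 1. Of 17 DNA repair genes tested, 5 fell and none rose (median -0.99, with -1.68 on the set 1 array and -0.24 on the set 2 array). BRIP1, a helicase of the Fanconi pathway, was at 7.57, 7.60 and 7.36 at 6 h and at 4.85 and 6.58 at 48 h (-1.80 ± 0.33, adjusted p = 0.00408). EXO1, an exonuclease of mismatch repair, fell by 1.58 on the log2 scale, and the nuclease and helicase DNA2 by 1.69. Of 31 splicing factors, 9 fell and none rose (median -0.55, with -0.90 and -0.40). On the set 1 and set 2 arrays, 1 and 5 of the 31 had a change above 0. SRSF1, an SR protein, went from 9.54, 9.74 and 9.21 to 7.54 and 8.96 (-1.24 ± 0.27, adjusted p = 0.0121). SRSF11 and TRA2A each fell by 1.07 on the log2 scale. SRSF7 went from 6.97, 7.19 and 7.42 to 5.79 and 6.39 (adjusted p = 0.00374). In BRIP1 and SRSF1 both 48 h arrays lay below the 6 h arrays and set 1 was the lower. Without the 48 h array of set 1, 0 of the 17 and 0 of the 31 were called by limma, with 2 and 11 at an unadjusted p under 0.05, and without that of set 2, 13 and 17.

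**Figure D3:**
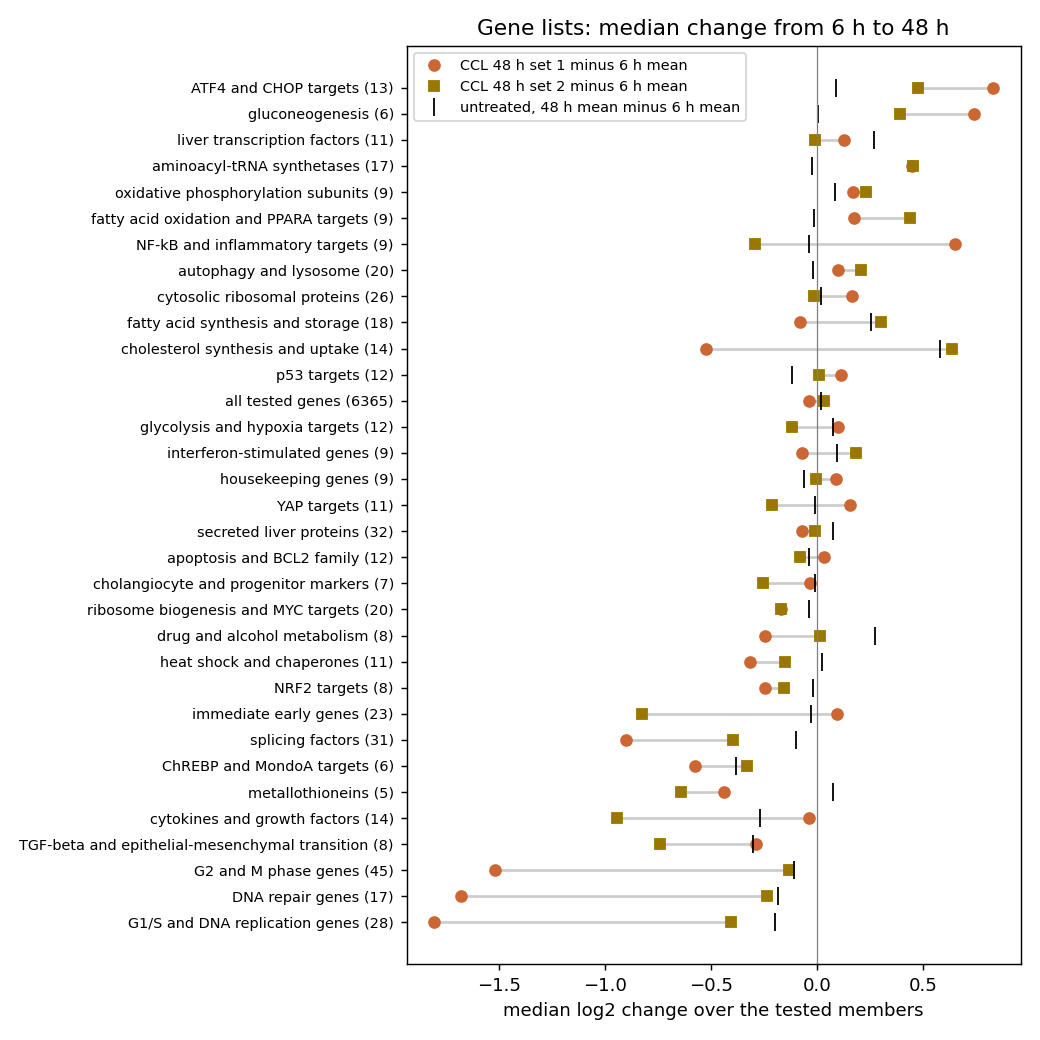
Median log2 change over the tested members of each gene list with at least 5 of them (number in brackets), for the 48 h arrays of set 1 (circles) and set 2 (squares) against the 6 h mean in CCL-treated HepG2, and for untreated cells (ticks). The medians lie together at 0.45 for the aminoacyl-tRNA synthetases and apart for cell cycle, immediate early and cholesterol genes.

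In the lists of liver metabolism and secretion 4 genes rose and none fell, where 1.79% and 2.58% of all genes did. None of 14 genes of cholesterol synthesis and uptake was called. Their median was -0.53 on the set 1 array and 0.63 on the set 2 array, with 4 and 14 of the 14 members above 0, while it was 0.58 in untreated cells. MVK and MVD, enzymes of the mevalonate pathway, changed by 0.73 and 0.63. All 6 gluconeogenesis genes tested had a change above 0 (median 0.55), and none was called. Of 9 genes of fatty acid oxidation, VNN1 and CPT2, the mitochondrial carnitine palmitoyltransferase, rose (CPT2 by 0.80; its second probe set, at a lower level, changed by -0.08). Of 18 genes of fatty acid synthesis and storage, LPIN1, a phosphatidate phosphatase, rose by 0.93. Of 32 secreted liver proteins, F7, coagulation factor VII, rose by 0.82. VNN1 changed by 2.646 and 1.205 on the set 1 and set 2 arrays, CPT2 by 0.621 and 0.978, LPIN1 by 0.879 and 0.988, and F7 by 0.94 and 0.706. ALB changed by -0.11 and AFP, the fetal albumin homologue, by -0.32, and neither passed.

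The remaining lists had at most 1 call each. KLF10 was the 1 called among 6 ChREBP and MondoA targets and MCL1 among 12 genes of apoptosis and the BCL2 family. TBX3, a T-box factor, fell by 0.72 among 11 liver transcription factors, RPL6 by 0.86 among 26 ribosomal protein genes, and AXL, a receptor kinase, rose by 1.14 among 11 YAP targets. TBX3 changed by -0.853 and -0.594 on the 48 h arrays of set 1 and set 2, RPL6 by -1.538 and -0.175, and AXL by 1.735 and 0.546. The change of RPL6 thus lay mostly on the set 1 array. RPL6 has processed pseudogenes that its probes may also read. RPS26, a ribosomal protein gene outside that list and named after its values were seen, fell by 0.72 too (adjusted p = 0.0374). No member was called among 8 NRF2 targets, 11 heat shock and chaperone genes, 12 p53 targets, 12 glycolysis and hypoxia genes, 8 genes of drug and alcohol metabolism, 9 NF-kB targets, 9 interferon-stimulated genes, 20 ribosome biogenesis genes, 9 oxidative phosphorylation genes, 7 cholangiocyte and progenitor markers and 9 housekeeping genes. HMOX1, the heme oxygenase induced by NRF2, spread from 6.26 to 9.15 at 6 h and was at 5.68 and 6.38 at 48 h, and did not pass (-1.46 ± 0.93, adjusted p = 0.396). SNAI2, an epithelial-mesenchymal transition factor (0.18), and SAT1, of polyamine breakdown (-0.10), did not pass. MAP2K6, a kinase above p38, did not pass (-1.37, adjusted p = 0.121), with means of 5.83 at 6 h, 3.76, 3.28 and 3.57 at 12, 18 and 24 h and 4.46 at 48 h. TXNIP, the thioredoxin inhibitor, spread from 4.33 to 6.71 at 6 h and was at 2.91 and 4.99 at 48 h, and did not pass (-1.84, adjusted p = 0.176).

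In untreated cells, 48 h against 6 h gave 1 call, 0.0157% of the genes tested, and 175 genes at an unadjusted p under 0.05, against 1310 in CCL-treated cells. Of the 114 genes that rose with CCL, 87 had an untreated change above 0, with a median of 0.12. Of the 164 that fell, 144 had an untreated change below 0, with a median of -0.21. The difference between the treated and the untreated change had the direction of the treated change for 113 of the 114 and for all 164, but passed limma's test for only 2 genes in all (0.0314% of those tested), with 517 at an unadjusted p under 0.05. In this fit a change called in treated cells is therefore not shown to differ from that of untreated cells, HPD and DKK4 apart. With set as a block, 23 genes passed (14 higher and 9 lower), HPD and DKK4 among them. Equal set numbers paired the untreated arrays, but 2 pairs cannot settle whether they pair the treated ones. The differences were 2.02 ± 0.41 for LAPTM5 and -1.69 ± 0.33 for PEG10 (adjusted p = 0.0571 for both), 2.15 for TCP11L2 (adjusted p = 0.0754) and 2.18 for UCA1 (adjusted p = 0.431). The UCA1 arrays of untreated cells spread widely, at 4.86, 3.20 and 4.60 at 6 h and 4.79, 4.47 and 6.26 at 48 h.

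HPD encodes 4-hydroxyphenylpyruvate dioxygenase, an enzyme of tyrosine breakdown in hepatocytes. In CCL-treated cells it was at 9.38, 9.29 and 9.32 at 6 h and at 10.4 and 10.1 at 48 h, a rise of 0.89 ± 0.16 (adjusted p = 0.00393). In untreated cells it was at 9.37, 9.24 and 9.24 at 6 h and at 8.84, 8.82 and 8.84 at 48 h, so the arrays moved in opposite directions without overlap. The difference of the changes was 1.34 ± 0.22 (adjusted p = 0.00693). Without the 48 h array of set 1 it was 1.20 and missed the threshold (adjusted p = 0.111). It also missed the threshold at a similar size with the deposited values (1.24, adjusted p = 0.293), with these centred (adjusted p = 0.134), with array weights (adjusted p = 0.0749) and with the compared arrays alone (adjusted p = 0.0765).

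DKK4, a secreted Wnt antagonist that is itself a Wnt target, was at 4.44, 4.56 and 4.11 at 6 h and at 3.15 and 3.37 at 48 h in CCL-treated cells (-1.11 ± 0.32, adjusted p = 0.0450). This fall was not called with the deposited values (adjusted p = 0.0813), with these centred (adjusted p = 0.0539), without a filter (adjusted p = 0.0758) or in 4 of the 5 fits with 1 array left out, and the adjusted p ran from 0.0326 to 0.551 over its alternatives. In untreated cells it rose from 3.84, 3.67 and 3.33 to 5.23, 5.31 and 5.69, the 1 call of that comparison (1.79, adjusted p = 0.00928). The difference of the changes was -2.90 ± 0.42 (adjusted p = 0.00282), and without the 48 h array of set 1 it was -2.79 and missed the threshold (adjusted p = 0.0578). All treated arrays at 6 h lay above all untreated arrays at 6 h, so the arms did not start level and this enters the difference. The treated values at 48 h lay near 2.85, the median of all probe sets after normalization. No CCL-treated array of any time exceeded log2 5 in DKK4. It passed the filter only through untreated arrays, the arm where it was high.

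**Figure D4:**
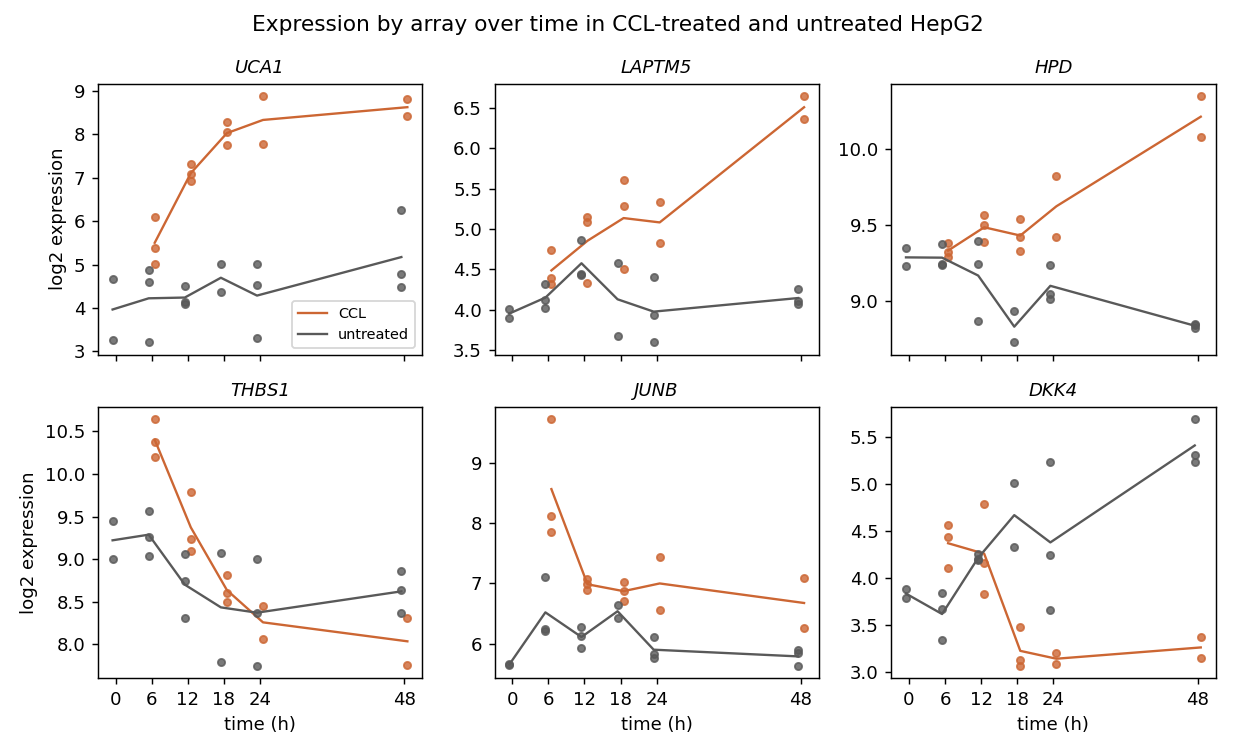
Log2 expression (vertical axes) on every array against time in h (horizontal axis) for 6 genes in CCL-treated (orange) and untreated (grey) HepG2, with lines through the group means and points shifted slightly sideways. In treated cells UCA1 and THBS1 change most before 24 h, and LAPTM5 and HPD are highest at 48 h. The treated arrays of DKK4 lie above the untreated ones at 6 h and below them from 18 h on.

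The intermediate times placed these changes. The mean at 24 h lay between the means at 6 h and 48 h for 95 of the 114 genes that rose and for 148 of the 164 that fell. UCA1 reached 7.11, 8.03 and 8.34 at 12, 18 and 24 h, close to its 48 h level. JUNB was already at 6.99 at 12 h and then at 6.87 and 7.001. LAPTM5 was at 4.85, 5.14 and 5.08 over these times, so most of its rise lay after 24 h, and PEG10, at 10.5, 10.1 and 9.71, fell steadily. HPD was at 9.49, 9.43 and 9.62. The median level of the 28 G1/S genes was 7.17 at 6 h, 6.67, 6.52 and 6.52 at 12, 18 and 24 h, and 6.04 at 48 h. That of the G2 and M phase genes stayed at 6.63, 6.60, 6.66 and 6.58 up to 24 h and was 5.87 at 48 h. The drops at 48 h lay mostly on the set 1 array, as given with these lists. At 24 h, too, the 2 treated arrays differed, with a mean absolute difference of 0.422, so means at that time hold unlike arrays. These medians rank times of 1 list and are not compared between genes.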

How the data were processed

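Total RNA of HepG2 cells was hybridized to Affymetrix arrays. The authors deposited 1 log2 value per probe set and array, for which the submitters' processing notes name RMA and Affymetrix Expression Console 1.1. Probe sequences and the genome build are not given in the sources used here, and without raw intensities the depth behind a value is unknown. Of 53617 probe sets, 16098 had 1 gene symbol in the array's probe table, all matched to RefSeq by gene ID. The other 37519 were not analysed here.

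Array medians differed in the deposited values, so all 29 arrays were quantile normalized. For the 14884 named genes, the probe set with the highest mean was used where there were several (779 genes), and the test took the 6365 genes that exceeded log2 5 on 2 arrays or more. The lmFit and eBayes functions of limma 3.58.1 (R 4.3.3) were applied to all 29 arrays with 1 mean per group, so that groups shared 1 spread per gene. Two-sided p-values were adjusted over the 6365 genes (Benjamini-Hochberg), with a threshold of 0.05. Errors are standard errors of this fit. A lone 48 h array left by omitting the other was taken to vary like the other groups.

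The comparison and the 37 gene lists (969 genes, 467 of them tested) were chosen with earlier results of these data known. Named genes were the 15 highest and 15 lowest changes among called genes whose arrays did not overlap, the called genes of the difference between arms, up to 4 called members of each list (otherwise 2), and 25 genes reported whatever they showed. Set numbers could pair arrays. Residuals of equal sets correlated at 0.111 and 0.0373 in CCL-treated cells, in 2 pairs only. With 2 arrays at 48 h their residuals mirror each other, so this check cannot settle pairing there. Residuals of equal sets correlated at 0.328 to 0.497 in the 3 untreated pairs, which paired them by this check. Among CCL-treated arrays of the same time, set 3 was lowest on the second principal component of all arrays at 6, 12 and 18 h (-15.4, -8.88 and -14.4). Set 3 was absent at 48 h, so a difference between sets can enter the comparison of 48 h with 6 h. Alternatives changed the normalization, the filter, the probe set, the arrays fitted, array weights, moderation and the set block, and left out each array in turn.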

Additional observations from a re-analysis of the deposited data

Results flagged for a closer look

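HPD and DKK4 stood out because their change from 6 h to 48 h differed between CCL-treated and untreated cells by a test of the difference itself. For HPD the treated change minus the untreated change was 1.34 on the log2 scale, with both treated arrays at 48 h above and all 3 untreated ones below those at 6 h. For DKK4 it was -2.90, with the opposite directions. DKK4 exceeded log2 5 on untreated arrays only, so it entered the test through the arm where it was high. Without the 48 h array of set 1 the differences were 1.20 and -2.79, nearly as large, and neither passed (adjusted p = 0.111 and 0.0578 by limma).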

How the results depend on the processing

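The counts of called genes were 114 higher and 164 lower. Deposited values, whose median change over all genes was -0.17, gave 16 and 56; centring each array on its median gave 44 higher. No filter gave 109 lower. The 5 arrays alone gave 0 and 0 (536 genes at an unadjusted p under 0.05), array weights 1 (TCP11L2) and 0, and the 13 CCL arrays 14 and 12. Leaving out 1 array gave 9 to 503 higher and 11 to 904 lower. With set as a replicate block, 257 were higher and 320 lower, all 278 main calls included; with sets 1 and 2 alone and the block, 175 were higher. Pairing by set is not established in treated cells.

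For the difference between arms, 1 higher and 1 lower gene (HPD and DKK4) became 0 higher with deposited or centred values, 2 and 2 with a filter at log2 6, 14 and 9 with the replicate block, 0 and 0 with array weights (limma in each case; 517 genes at an unadjusted p under 0.05 in the first fit), 3 lower with robust moderation, and 0 to 178 higher and 0 to 463 lower with 1 array left out. For untreated cells, 1 higher became 0 with the filter at log2 6, 2 with the compared arrays alone, 115 (and 88 lower) with array weights and 0 to 1 with 1 array left out; the block changed no call there.

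Uncalled genes that changed sign were SNAI2 (-0.0117) and IER3 (-0.0410) with deposited values, and IER3 (-0.00456) and ALB (0.00215) with centred values. Others changed sign with an array left out. Without the 48 h array of set 1 and without that of set 2, in this order, the log2 change was -0.59 and 0.64 for IER3, -0.83 and 1.17 for ATF3, -0.12 and 1.17 for PGAM1, 0.60 and -1.52 for IFIH1, 0.25 and -1.47 for MALAT1, -0.0910 and 0.97 for IGFBP1, -0.0101 and 2.73 for DUSP5, -0.24 and 0.81 for GDF15, -0.39 and 0.74 for SNAI2, -0.16 and 0.64 for MYC, 0.29 and -1.52 for KIF20A, and 0.20 and -0.87 for CCNB1. It was -1.43 and 0.15 for LIF, -0.58 and 0.0986 for JAG1, -0.26 and 0.0653 for SAT1, and -1.68 and 0.29 for FOSL1. Of 1890 values of named genes over all settings, 1433 kept direction and side of the threshold, 406 lost the call, 29 gained it and 22 changed sign. The cause was not tested. Having 2 arrays at 48 h limits the precision of every value.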
